A study of Drosophila melanogaster with 9 samples.

Results

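The RNAs crosslinked to the isolated NHL domain of Mei-P26 were compared with those recovered from Drosophila S2 cells that carried no tagged protein. A gene was taken up when the 6 libraries of this comparison held at least 10 cDNAs on it, and mei-P26 and Act5C were set aside because their sequences can come from the plasmid. This left 994 of the 6780 genes on which any of the 9 libraries of the series held a cDNA, and 5885 genes had a cDNA in the 6 libraries. S2 cells are a macrophage-like line of embryonic origin, and the sample labels call them SL2 in one field and S2R+ in another. The 3 NHL domain libraries came from cells transfected with 15 µg of a pAC5.1 plasmid per 15-cm dish, which encodes residues 908 to 1206 of Mei-P26 with a FLAG tag under the Act5C promoter, and cells were harvested after 48 h. The 3 control libraries came from cells without plasmid, so the control differs from the NHL domain in the protein and also in the transfection. The treatment text shared by all samples instead describes a control of proteins with substitutions in the RNA-binding surface, which the values cannot settle. All cells were UV-irradiated, lysates were treated with 10 U RNase I, and the label of every library names the same anti-FLAG antibody. The methods of the study also name a control serum for the precipitation, without saying for which libraries. The control may thus differ in the antibody as well.

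Mei-P26 belongs to the TRIM-NHL proteins and controls germ cell differentiation in the fly ovary. Its NHL domain is a β-propeller whose positively charged top surface binds single-stranded RNA with a preference for uridines. In iCLIP2 the crosslinked residue stops reverse transcription, so each distinct cDNA marks 1 nucleotide that was next to the precipitated protein. Values are given below as cDNAs and as rates, that is cDNAs on the gene per 10000 cDNAs of its library. A rate is not divided by gene length and mixes how much of an RNA was present with how often it was crosslinked.

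For binding assays the study designed short RNAs from 5 genes that are among the 994, and their letters show the kind of sequence that the NHL domain was tested on. They are printed 5′ to 3′. Capitals mark a match to a motif that the study set for the NHL domain, and otherwise the longest run of uridines. The motifs searched were UUUUACN together with the motif UUUUANA, then the motif UUUUNCA, and a run of 7 uridines, and they can overlap. LanA, lost and Mlc-c hold such a match, whereas Col4a1 and Hrb27C hold a run of 6 uridines and none of these motifs. Both runs fall under a wider class of U-rich sequences that the study also scored and that was not searched here. The genes lie on chromosome arms 3L, 3R, X, 2L and 2L in the order below, and the position of the RNAs within them was not looked up.
LanA: auccuUUUUAAAacucc
lost: cccUUUUUUUAUAcacaa
Mlc-c: ggucuUUUUACAaaag
Col4a1: gccaUUUUUUaucugcca
Hrb27C: aguaaUUUUUUcuauuaaagu

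NHL domain replicates 1, 2 and 3 held 4321, 7947 and 40032 cDNAs and the control replicates 1252, 1160 and 849. Of the 994 genes, 709 reached 10 cDNAs through NHL domain replicate 3 alone and 273 without it, so the choice of genes leans on 1 library and on the NHL domain side. In the control, 272 genes had no cDNA, 452 had 1 or 2, and 31 had at least 10. At the rate seen with the NHL domain, only 176 genes would have given 3 or more control cDNAs. Control replicate 3 stood apart from the other controls in its cDNAs on mei-P26. It held 11 cDNAs on mei-P26, a rate of 130, against 3 and 6 cDNAs in control replicates 1 and 2 (rates 24.0 and 51.7) and rates of 106 to 134 with the NHL domain. Its gene profile was also nearest to that of the NHL domain, but only slightly nearer than that of control replicate 2. Across 179 genes with at least 50 cDNAs, Spearman correlations with the NHL domain libraries were 0.48 to 0.51 for control replicate 3. They were 0.42 to 0.48 for control replicate 2 and 0.22 to 0.27 for control replicate 1. These genes share libraries and differ in abundance, so the correlations are a description. Act5C gave 8, 16 and 97 cDNAs with the NHL domain and 0 in each control library, including replicate 3. Whether control replicate 3 holds material of a transfected library was not tested. Of 10 hemocyte markers 8 had a cDNA with the NHL domain against 6 in the control, but Hml and NimC1, which define mature hemocytes, had none. The summed rate of the 10 markers was 39.0 for the NHL domain against 67.5 for the control, which held far fewer cDNAs. Per library it was 34.7, 22.7 and 42.7 against 79.9, 77.6 and 35.3, so the groups overlapped through control replicate 3. All 8 germline markers, including vas, nos and bam, were at 0 in the 6 libraries. Neuronal markers gave 6 cDNAs and muscle markers 5 with the NHL domain, and neither gave any in the control, where at such depth few or none would be seen.

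No gene passed the test between the NHL domain and the control. In the quasi-likelihood test of edgeR, scaled to all cDNAs of a library, 0 of 996 genes (0%) had an adjusted p below 0.05, and the smallest adjusted p was 0.249. At an unadjusted p below 0.05 there were 17 genes (1.71%) with a higher and 15 (1.51%) with a lower rate for the NHL domain. Of these, 16 and 15 are among the 994 genes. DESeq2 also called 0 genes, with 21 and 4 at an unadjusted p below 0.05. TMM scaling moved the median log2 fold change of all genes by 1.08, to 1.07 from -0.01, and then called 20 genes (2.01%) higher and 0 lower, with 122 and 0 at an unadjusted p below 0.05. All NHL domain libraries lay above all control libraries in 174 of the 996 genes (17.5%), and below them in 29 (2.91%). Without control replicate 3 the edgeR test called 0 genes, with 28 higher and 17 lower at an unadjusted p below 0.05. Without NHL domain replicate 3 it called 2 genes, snRNA:LU and its host FASN2 (edgeR adjusted p = 0.0317 for both). Directions below are for scaling to all cDNAs, and with TMM, which moves the values upward, a negative difference smaller than its shift of the median turns positive unless it is taken relative to that shift.

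The genes at an unadjusted p below 0.05 were of different kinds in each direction, which was not tested. Of the 16 genes with higher rates, 8 were genes of small nuclear or nucleolar RNAs and 7 were protein-coding. Of the 15 with lower rates, 14 were protein-coding. Among the 994 genes, 130 are small RNA genes, 33 belong to the mitochondrial genome, 81 encode ribosomal proteins, and 820 are protein-coding in all. Of the 130 small RNA genes 33 had no control cDNA, a share close to that over all genes, where it was 272 of 994.

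**Figure D1:**
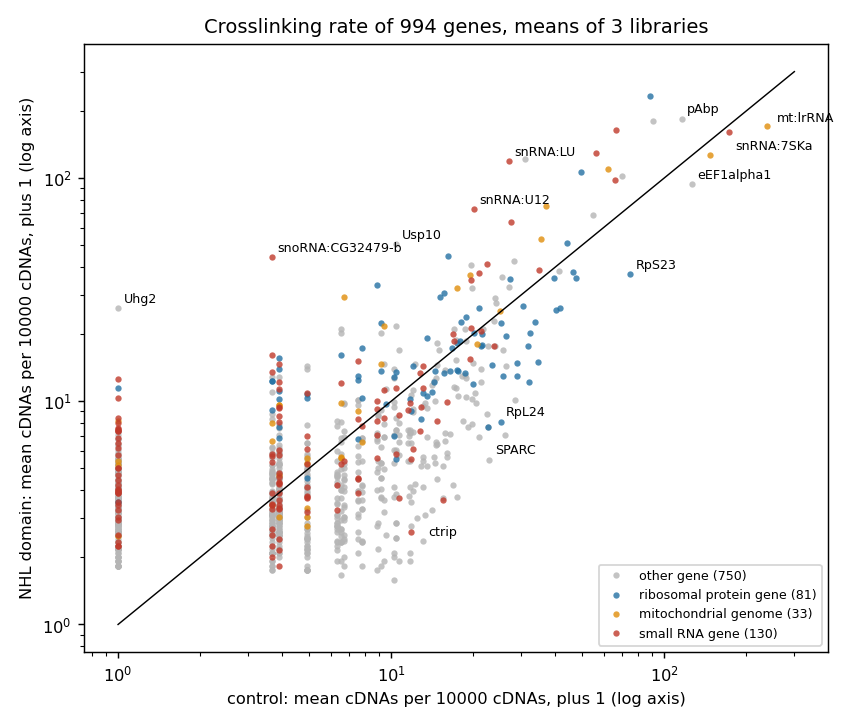
Mean rate of each of the 994 genes in the 3 control libraries (x axis) and the 3 NHL domain libraries (y axis), both as cDNAs per 10000 cDNAs plus 1 on log axes, with the line of equal rates. The 272 genes without a control cDNA form the column at the left, and the next columns hold genes with 1 control cDNA. snRNA:LU and snRNA:U12 lie above the line, snRNA:7SKa and mt:lrRNA near or below it.

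Crosslinks on some ribosomal protein genes were packed into a few nucleotides. RpLP1 encodes an acidic stalk protein of the large subunit. Its top nucleotide, chr2L:420660 on the plus strand (Ensembl release 98 genome), had 2, 11 and 37 cDNAs with the NHL domain against 0, 0 and 1 in the control. The nucleotide before it had 2, 11 and 20 against 1, 1 and 1, and is 1 of 7 positions with a cDNA in each control library. A 31-nt stretch around both, placed by NHL domain replicate 3, held 10 of 16, 30 of 58 and 89 of 160 cDNAs with the NHL domain, and 9 of 14 in the control. The control cDNAs thus lay mostly in the same stretch. For RpS20, a protein of the small subunit, the top nucleotide outside small RNA genes, chr3R:20823267, had 4, 9 and 34 cDNAs with the NHL domain and none in the control. Top nucleotides are those with most cDNAs summed over the NHL domain libraries, which held 52300 cDNAs against 3261 in the control. This choice and this depth both favour higher counts with the NHL domain.

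**Figure D2:**
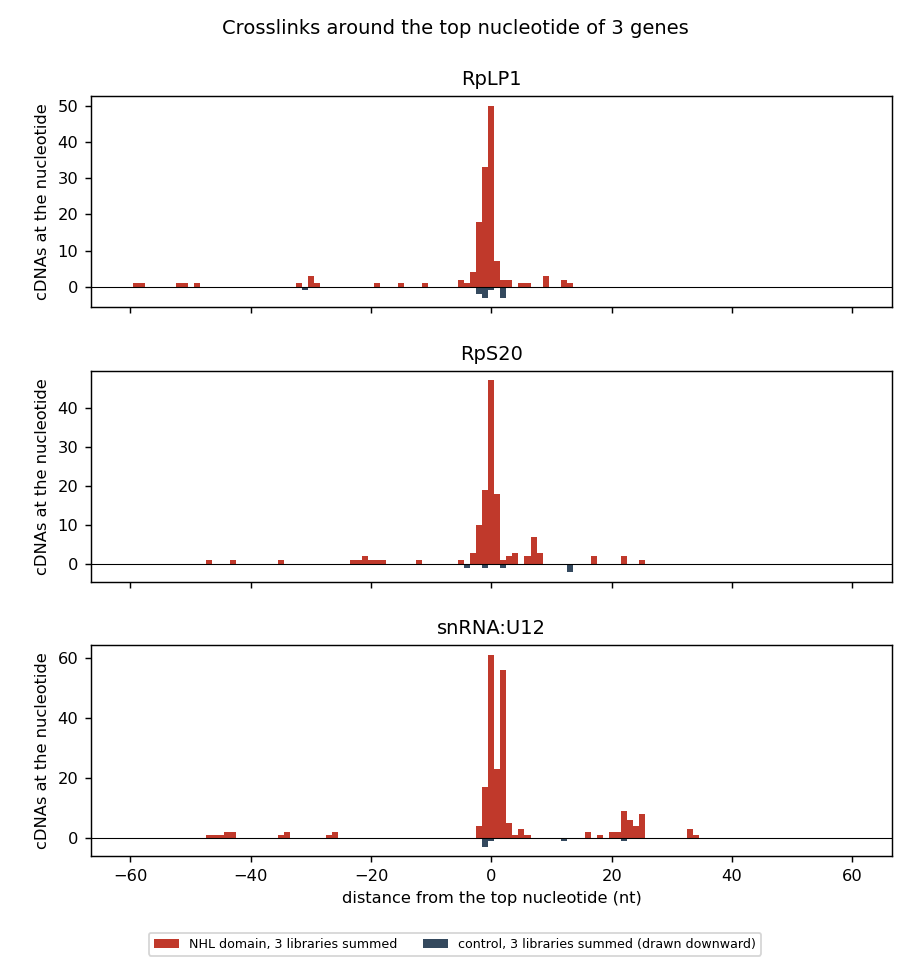
cDNAs at each nucleotide from 60 nt upstream to 60 nt downstream of the top nucleotide of RpLP1, RpS20 and snRNA:U12, summed over the 3 NHL domain libraries (upward) and the 3 control libraries (downward, same scale). Counts are not scaled to depth. The NHL domain libraries held 52300 cDNAs in all and the control libraries 3261, so bar heights cannot be compared between groups. RpLP1 had 50 cDNAs at the top nucleotide and 33 at the one before it with the NHL domain, and snRNA:U12 had 61 at the top nucleotide and 56 at 2 nt downstream.

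Small nuclear RNAs differed among themselves. snRNA:LU (FBgn0263847, chromosome 2L) gave 53, 152 and 160 cDNAs with the NHL domain against 1, 4 and 3 in the control. Its rates were 123, 191 and 40.0 against 7.99, 34.5 and 35.3, so the groups did not overlap, although NHL domain replicate 3 was close to the controls. The edgeR log2 fold change was 2.22 ± 0.66 (SE), with an adjusted p of 0.249. snRNA:U12, the branch-site RNA of the minor spliceosome, had 43, 63 and 144 cDNAs against 1, 3 and 2. Its rates were 99.5, 79.3 and 36.0 against 7.99, 25.9 and 23.6, an edgeR log2 fold change of 1.89 ± 0.70 (SE, adjusted p = 0.777), again without overlap. In snRNA:U12 a 31-nt stretch at chr3L:16653944-16653974 held 35 of 43 cDNAs in NHL domain replicate 1, 52 of 63 in replicate 2 and all 6 control cDNAs. By contrast, snRNA:7SKa, the RNA that holds the elongation factor P-TEFb inactive, was as frequent in the control. It gave 66, 156 and 517 cDNAs against 25, 15 and 16, with mean rates of 159 ± 34.1 and 172 ± 37.8 (SD, n = 3), and the groups overlapped (edgeR log2 fold change -0.11 ± 0.51 (SE), adjusted p = 0.989).

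Among small nucleolar RNAs, which guide modification of other RNAs, snoRNA:CG32479-b (chromosome 3L) had 27, 29 and 123 cDNAs with the NHL domain against 1, 0 and 0 in the control. Summed over the libraries its rate was 11.2 times that of the control, with an exact 95% counting interval of 1.98 to 443, a width that comes from the single control cDNA. snoRNA:Me18S-C1968, named for methylation of 18S rRNA, had rates of 167, 200 and 125 with the NHL domain against 15.97, 51.7 and 130 in the control. The last value, from control replicate 3, lay above NHL domain replicate 3. The edgeR log2 fold change was 1.41 ± 0.57 (SE), with an adjusted p of 0.777, and 2.29 without that library (edgeR adjusted p = 0.214). snoRNA:Psi18S-1347a, named for a pseudouridine in 18S rRNA, had rates of 192, 85.6 and 110 against 31.9, 51.7 and 82.5, without overlap but with control replicate 3 just below NHL domain replicate 2. snoRNA:Psi28S-2562 had 32, 43 and 235 cDNAs against 0, 1 and 6, and 6 of its 7 control cDNAs came from replicate 3. snoRNA:U14:30Eb and snoRNA:Or-aca1 had no control cDNA, with 6, 7 and 22 and with 11, 5 and 12 cDNAs for the NHL domain.

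**Figure D3:**
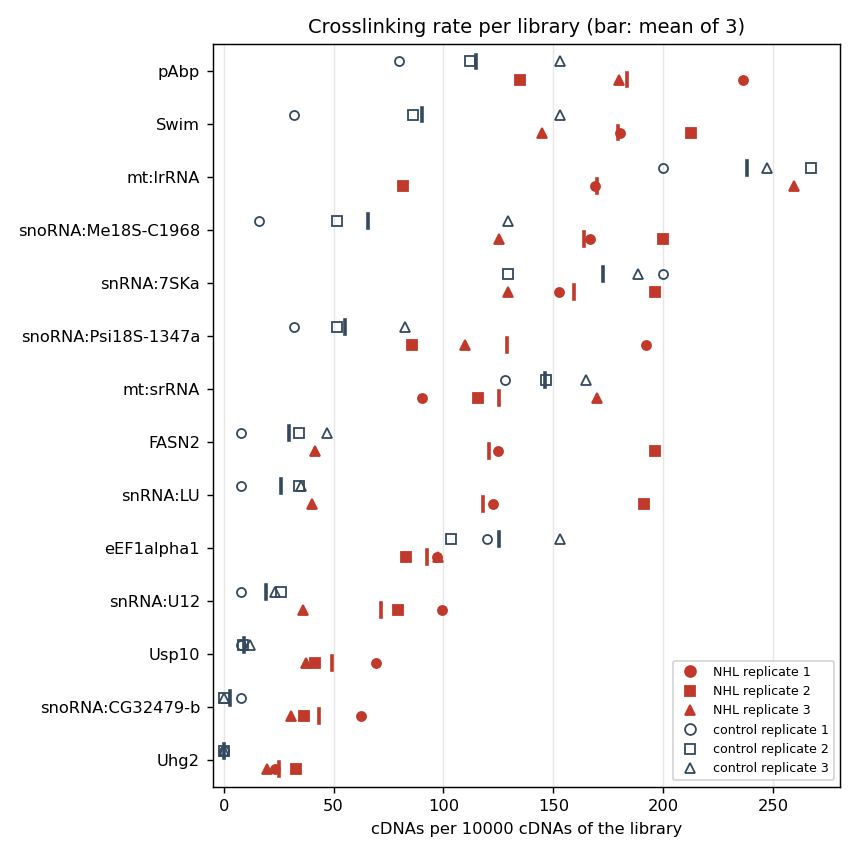
Rate in each library (x axis, cDNAs per 10000 cDNAs) for the genes with the highest mean rates and those with the smallest p, NHL domain filled and control open, with a bar at the mean of each group. snRNA:LU, snRNA:U12, snoRNA:Psi18S-1347a, snoRNA:CG32479-b, Usp10 and Uhg2 lay above the control in every library, as did 17.5% of all genes. Most cDNAs of Usp10 and Uhg2 lay inside small RNA genes. eEF1alpha1 lay below the control in every library, as did 2.91% of all genes. The other genes, among them the mitochondrial rRNAs and snRNA:7SKa, overlapped.

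In flies most snoRNAs are cut from introns of other genes, and a cDNA inside such a snoRNA is counted for its host as well. Of the 820 protein-coding genes, 70 had an NHL domain cDNA inside a small RNA gene, and in 15 more than 80% of them lay there. Uhg2, a non-coding snoRNA host, gave 10, 26 and 79 cDNAs with the NHL domain and 0 in each control library. Its rate was at least 2.74-fold higher against a floor of 3 cDNAs in the control group, but 96.5% of its cDNAs lay inside a small RNA gene. FASN2, a fatty acid synthase, gave 54, 156 and 166 cDNAs against 1, 4 and 4, of which 98.9% with the NHL domain lay inside snRNA:LU. Usp10, a deubiquitinase, gave 30, 33 and 150 against 1, 1 and 1. Its summed rate was 4.43 times that of the control (exact 95% counting interval 1.49 to 21.6), and 90.1% of its cDNAs lay inside a small RNA gene.

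With positions inside a single gene counted alone, the rates of pAbp and Swim no longer lay higher with the NHL domain, and too few cDNAs were left on Uhg2, FASN2 and Usp10 to compare. pAbp, the cytoplasmic poly(A)-binding protein, had rates of 236, 135 and 180 with the NHL domain against 79.9, 112 and 153 in the control when all positions counted. Outside small RNA genes its rates were 32.4, 40.3 and 60.0 against 31.9, 43.1 and 58.9, with means of 44.2 ± 14.2 and 44.6 ± 13.5 (SD, n = 3). The log2 fold change was 0.69 (adjusted p = 0.777 from edgeR) over all positions and 0.09 ± 0.55 (SE, edgeR adjusted p = 0.987) over its own. Swim, a secreted protein that binds Wingless, went from mean rates of 179 and 90.4 to 15.3 ± 3.67 and 24.7 ± 9.30. The groups overlapped, with an edgeR log2 fold change of -0.58 ± 0.70 (SE, adjusted p = 0.833). Usp10 kept 0, 4 and 17 of its cDNAs against 0, 1 and 0. FASN2 kept 4 of 376 cDNAs with the NHL domain and 1 of 9 in the control. Tudor-SN, a nuclease of the RNA-induced silencing complex, kept 19 of 389 and 1 of 20.

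The host gene RpS20 kept more. It had 51, 85 and 371 cDNAs against 1, 5 and 8 over all positions and 19, 42 and 135 against 1, 4 and 2 over its own. Its own rates were 44.0, 52.9 and 33.7 against 7.99, 34.5 and 23.6, with control replicate 2 above NHL domain replicate 3 (edgeR log2 fold change 0.98 ± 0.66 (SE), adjusted p = 0.817).

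**Figure D4:**
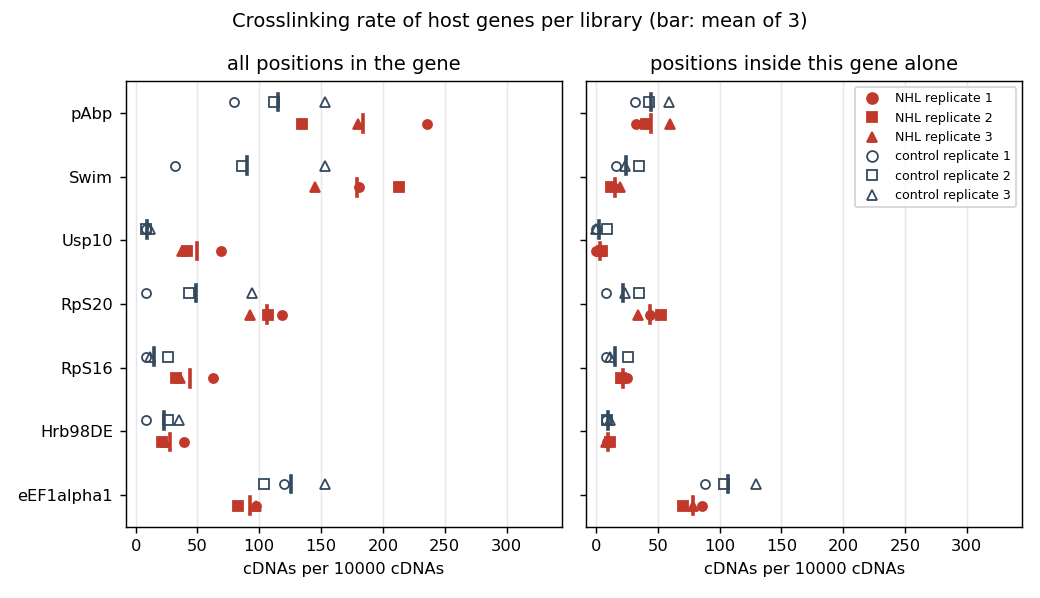
Rate of 7 genes in each library (x axis, cDNAs per 10000 cDNAs) over all positions (left) and over positions inside that gene alone (right), NHL domain filled, control open, bars at the means of 3. For pAbp the group means were 184 and 115 on the left and 44.2 and 44.6 on the right.

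Summed over the fixed lists, H/ACA box snoRNAs, which guide pseudouridylation, took up 6.50%, 3.41% and 4.03% of the cDNAs with the NHL domain against 2.48%, 2.41% and 4.12% in the control. C/D box snoRNAs, which guide methylation, took up 3.31%, 4.40% and 3.16% against 2.08%, 1.90% and 2.71%, and here the groups did not overlap. The exact 95% intervals of these single shares did, from 2.80% to 4.88% with the NHL domain and from 1.19% to 4.04% in the control. snRNAs took up 4.44%, 6.57% and 2.61% against 2.40%, 2.33% and 3.53%. In each of these 3 classes control replicate 3 was the highest control, and without it the NHL domain libraries all lay above the controls. All genes of small nuclear and nucleolar RNAs together held 17.7%, 17.2% and 12.1% with the NHL domain against 8.31%, 8.53% and 12.96% in the control. When each crosslinked position counted once, these shares were 12.2%, 11.1% and 6.43% against 8.08%, 8.42% and 12.6%, with means of 9.92% and 9.69%. By this count all NHL domain libraries lost much, the deepest, replicate 3, the largest part of its own share, and the shallow controls hardly any. The shares of positions are therefore not comparable between libraries of unequal depth. Of the 102 such genes among the 994, 8 had higher and 1 had lower rates at an unadjusted p below 0.05, and 19 (18.6%) lay above the control in every library, close to the 17.5% over all genes, where 1.71% had higher and 1.51% lower rates. Their median log2 fold change was 0.59, or -0.30 with the 27 genes without a control cDNA at their bound, against -0.01 and -0.69 over all genes.

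Mitochondrial RNAs took up 8.26%, 7.59% and 8.39% with the NHL domain against 6.07%, 7.33% and 7.18% in the control, without overlap but close together. mt:lrRNA, the large rRNA, had rates of 169, 81.8 and 259 against 200, 267 and 247 (log2 fold change -0.47 ± 0.50, SE). mt:CoI, cytochrome oxidase subunit I, gave 62, 93 and 265 cDNAs against 8, 7 and 5, with mean rates of 109 ± 39.3 and 61.05 ± 2.57 and no overlap (log2 fold change 0.80 ± 0.56, SE). mt:ND1, a subunit of complex I, gave 14, 26 and 81 against 0, 2 and 0. mt:srRNA, the small rRNA, had a log2 fold change of -0.20 ± 0.51 (SE). Of the 13 mitochondrial messenger RNA genes, 12 had a log2 fold change above 0, and 3 lay above the control in every library. Of all 33 mitochondrial genes 6 (18.2%) lay above it in every library, close to the 17.5% over all genes. None of the 33 passed the edgeR test, and 1 had a higher rate at an unadjusted p below 0.05, against 1.71% of all genes.

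The ribosomal protein genes reported here held 12.3%, 15.8% and 13.5% of the cDNAs with the NHL domain against 14.6%, 13.7% and 13.3% in the control. Those of the small subunit took up 6.06%, 7.21% and 6.41% against 5.75%, 7.07% and 5.65%, and those of the large subunit 6.25%, 8.59% and 7.10% against 8.87%, 6.64% and 7.66%, with overlap in both. Of the 80 genes, 3 had higher rates (RpS20, RpL12 and RpL15) and 1 had lower rates (RpL24) at an unadjusted p below 0.05, against 1.71% and 1.51% over all genes. Over its own positions RpS20 had an unadjusted p of 0.138 in the edgeR test. RpL12 gave 4, 8 and 48 cDNAs against none, and RpL15 gave 14, 33 and 92 against 0, 0 and 2. The median log2 fold change of the list was -0.0046. Within the list values went both ways. RpS23, a small-subunit protein at the decoding centre, had rates of 25.5, 42.8 and 40.2 with the NHL domain against 79.9, 94.8 and 47.1 in the control, below it in every library (edgeR log2 fold change -1.03 ± 0.55 (SE), adjusted p = 0.777).

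Translation factors held 2.24 ± 0.28% of the cDNAs with the NHL domain against 2.66 ± 0.48% in the control (SD, n = 3). The factor with most cDNAs, eEF1alpha1, which brings aminoacyl-tRNA to the ribosome, had rates of 97.2, 83.1 and 97.7 against 120, 103 and 153, below the control in every library (edgeR log2 fold change -0.42 ± 0.52 (SE), adjusted p = 0.816). eEF5, eEF2 and eIF4A had log2 fold changes of 0.13, 0.42 and 0.78 with standard errors of 0.69, 0.78 and 1.10. Of the 24 factors among the 994 genes, none had an unadjusted p below 0.05.

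The genes of the extracellular matrix, which S2 cells secrete, took up 0.44%, 0.39% and 0.70% with the NHL domain against 1.20%, 1.03% and 0.47% in the control. SPARC, a collagen-binding glycoprotein, had the smallest p of the genes with lower rates, with 2, 2 and 25 cDNAs against 5, 3 and 0 (edgeR log2 fold change -2.23 ± 0.83 (SE), adjusted p = 0.777). Control replicate 3 had none of its cDNAs, nor any of the 7 control cDNAs on vkg, which encodes a type IV collagen chain. The other genes with lower rates rested on few cDNAs. Bruce, a giant inhibitor of apoptosis, had 2, 1 and 9 against 0, 3 and 2, and ctrip, a ubiquitin ligase, 1, 0 and 7 against 2, 1 and 1. RpL24 had 0, 9 and 40 against 8, 1 and 0, and 8 of its 9 control cDNAs came from replicate 1. Df31, a chromatin factor, had 5, 5 and 38 against 2, 5 and 2, below the control in every library. betaTub60D, a beta-tubulin, had 2, 1 and 15 against 3, 0 and 2. hfp, a splicing factor, had 1, 3 and 6 against 3, 1 and 0, and scaRNA:MeU2-48, named for a methylation of U2 snRNA, 1, 1 and 5 against 3, 1 and 0. These are largely the same cDNAs, since 7 of the 10 with the NHL domain on hfp and all 4 in the control lay inside scaRNA:MeU2-48.

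**Figure D5:**
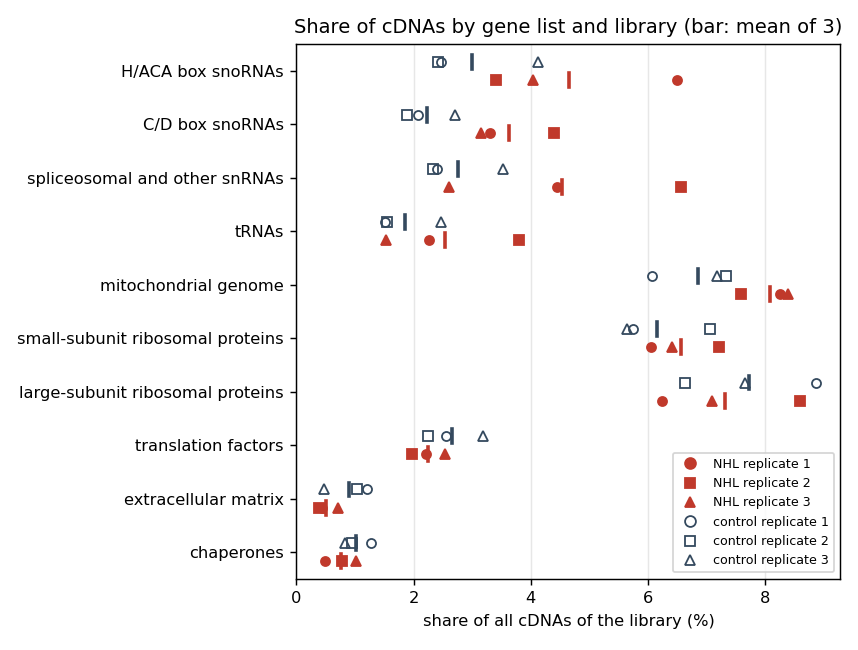
Share of all cDNAs of each library (x axis, percent) on the genes of 10 lists, NHL domain filled, control open, bars at the means of 3. C/D box snoRNAs and the mitochondrial genome did not overlap between groups, and control replicate 3 was the highest control for the snoRNAs, snRNAs and tRNAs.

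The study tested 16 genes in binding or reporter assays, and 15 of them reached 10 cDNAs. These were chosen by the study with these libraries in view. Together they took up 2.68%, 2.97% and 3.10% of the cDNAs with the NHL domain against 2.40%, 3.10% and 3.06% in the control, and their median log2 fold change was 0.05. Of the 15 only RpS20 had an unadjusted p below 0.05, against 1.71% of all genes with higher rates, and only sqd (6.67%) lay above the control in every library, a share below the 17.5% over all genes. sqd, an hnRNP protein that localizes messenger RNAs, had rates of 34.7, 35.2 and 35.2 with the NHL domain against 24.0, 25.9 and 23.6 in the control. Its edgeR log2 fold change was 0.51 ± 0.68 (SE, adjusted p = 0.861), since 3, 3 and 2 control cDNAs leave a wide error.

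The genes of the printed RNAs gave few cDNAs in the shallow libraries. LanA, a laminin chain, had 4, 7 and 58 cDNAs with the NHL domain against 2, 0 and 2 in the control. Col4a1, a type IV collagen chain, had 3, 4 and 59 against 2, 0 and 1, and Hrb27C, an hnRNP protein, had 5, 16 and 74 against 1, 3 and 3. lost had 1, 1 and 28 against 1, 0 and 0, and Mlc-c, a light chain of non-muscle myosin, 3, 0 and 14 against 1, 0 and 0. The log2 fold changes of LanA, Col4a1 and Hrb27C were -0.07, 0.17 and -0.32 with standard errors of 0.90, 0.98 and 0.73. At 0 to 3 cDNAs per control library a 2-fold difference was not detectable for these genes. eIF4A, chic (profilin), bic (a subunit of the nascent polypeptide-associated complex), Hsp83 (the fly Hsp90), sta, Swip-1 and spz (the Toll ligand) had log2 fold changes between -1.11 and 0.78, none with an unadjusted p below 0.05. nos, which encodes the translational repressor Nanos, had no cDNA in any of the 6 libraries.

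At single nucleotides the replicates of the NHL domain met most often in small RNAs, and so did the control replicates at their few shared positions. Small RNA genes took up 20.5%, 21.7% and 14.2% of all cDNAs with the NHL domain against 10.1%, 10.4% and 16.4% in the control. Of 37438 positions in genes with a cDNA in the 6 libraries, 300 had one in each NHL domain library. Small RNA genes held 178 of them and the mitochondrial genome 36, and 8 lay in mei-P26. The protein-coding genes reported here held 64 outside small RNA genes, in 40 genes, of which 41 were in 26 ribosomal protein genes. eEF1alpha1 held 5 of these positions, RpS20 and RpLP1 held 4 each, and RpS23, RpS25 and DIP-alpha, a cell-surface immunoglobulin protein, held 3 each. All 3 on DIP-alpha also lay in lncRNA:CR34335, as did 41 of its 43 cDNAs with the NHL domain. The nucleotide with most cDNAs, chr2R:18142833 in snoRNA:Psi18S-1347a and its host pAbp, had 33, 16 and 134 cDNAs with the NHL domain against 1, 2 and 2 in the control. The next in a snoRNA, chr2R:22197341 in snoRNA:Me18S-C1968, had 10, 42 and 61 and no control cDNA. The top nucleotide of snoRNA:Tudor-SN-a, chr3L:260084, had 14, 32 and 57 against 0, 1 and 1. A mitochondrial tRNA, mt:tRNA:Asn-GTT, had 6, 8 and 77 against 1, 1 and 0 at position 6134. All these nucleotides were picked for their NHL domain cDNAs, in libraries far deeper than the control.

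The control cDNAs often fell on the same nucleotides. A control cDNA lay on 89 of the 300 positions (29.7%), or on 57 without control replicate 3. All 7 positions with a cDNA in each control library also had cDNAs with the NHL domain, among them positions in RpLP1, snRNA:U12, snoRNA:Psi18S-1347a, snoRNA:Tudor-SN-a and snRNA:7SKa. Of all control cDNAs on genes, 20.1%, 21.0% and 30.7% lay on a nucleotide with an NHL domain cDNA, again highest in replicate 3.

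Packing of crosslinks was compared over genes with at least 20 cDNAs in NHL domain replicate 3, with the densest 31-nt stretch of each gene placed by that library. In 55 small RNA genes the stretch held 72.4% of the cDNAs in NHL domain replicate 1 and 69.6% in replicate 2, and 64.2%, 75.6% and 69.9% in the control. In 221 protein-coding genes outside small RNA genes the shares were 21.8% and 20.8% against 14.8%, 21.1% and 21.2%, and the groups overlapped. Exact 95% intervals of the latter spanned 18.9% to 24.7% with the NHL domain and 11.3% to 27.6% in the control. The stretch was placed by an NHL domain library, which favours the other NHL domain libraries.

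In the peaks called by the authors in each library, 519 of the 994 genes had one with the NHL domain and 61 had one in all 3 NHL domain libraries. These 61 comprised 25 small RNA genes, 2 mitochondrial genes and 30 protein-coding nuclear genes. A control library had a peak in 23 of the 61. RpS20, with 17, 30 and 68 peaks, of which 13, 17 and 54 lay inside snoRNA:Psi28S-2562, and eEF1alpha1, with 5, 15 and 79, had none in the control, which holds 57, 42 and 60 peaks per library in all. Control libraries had a peak in 62 of the 994 genes and all 3 had one in 6.

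At equal depth the NHL domain did not spread over more genes than the control. At 760 cDNAs on genes, the NHL domain libraries were expected to touch 481, 474 and 519 genes and the control libraries 529, 554 and 481. The means were 491 ± 24.4 and 521 ± 37.1 (SD, n = 3; two-sided exact permutation test, p = 0.2, with 0.1 the smallest that 3 against 3 allow). For protein-coding genes at 551 cDNAs the means were 413 ± 13.4 and 419 ± 18.3 (p = 0.7 from the same exact test). The 10 genes with most cDNAs in a library took up 16.2%, 14.5% and 12.3% with the NHL domain against 10.1%, 10.2% and 14.1% in the control. Here a position inside several genes counted once, for its small RNA gene or otherwise for the gene with the first identifier.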

How the data were processed

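The authors sequenced iCLIP2 libraries, removed PCR duplicates, mapped each replicate to the fly genome as in Ensembl release 98 and ran iCount. The submitters' processing notes name STAR 2.7.3a, while the version of iCount is not stated there. The deposited values are unnormalized counts of distinct cDNAs per crosslinked nucleotide, with the false discovery rate, a corrected p-value, that the authors' peak caller gave each position. Coordinates are those of the files, counted from 1. Merged clusters were not used here.

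For each library the cDNAs of all positions annotated to a gene were summed, a position inside several genes counting for each. Genes with at least 10 cDNAs over the 6 libraries were tested with edgeR 4.0.16 in R 4.3.3 by the quasi-likelihood test, with all cDNAs of a library as its size, no TMM factor and Benjamini-Hochberg adjustment at 0.05. The fit held mei-P26 and Act5C, hence 996 genes. DESeq2 1.42.0 was an alternative. Libraries held 849 to 40032 cDNAs. Counting intervals are exact (Clopper-Pearson) at 95%, and a control of 0 was set against a floor of 3 cDNAs over the group. Both cover counting error only. The methods of the study describe the 3 libraries of a construct as independent biological replicates and the non-transfected control as handled alongside. It is not stated there or in the labels whether the 3 control libraries came from separate cultures, so for them p-values may measure technical spread.

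Symbols matched 6725 of 6780 genes, and gene types came from RefSeq annotation. No genome sequence or transcript annotation of the build was used, so the planned shares of U, of motifs and of 3′ UTRs were not computed. The strand setting of the counting is that of the files. The genes, lists and tests were chosen with earlier results of these data known. Named genes are the 10 with the highest mean rate with the NHL domain and the 6 in the control, the 8 with the smallest p in each direction, the genes of the study's assays, mei-P26 and Act5C, and the 6 top recurrent nucleotides in protein-coding and in other genes. One item that this rule takes is not reported here and was left out of the list sums and of the counts by list. Others were named after their values were seen, as members of the lists. The test scripts were tested on simulated data. Tables were made with pandas 2.3.3, NumPy 2.4.6 and SciPy 1.17.1, and figures with matplotlib 3.10.9, in Python 3.11.15.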

Additional observations from a re-analysis of the deposited data

How the results depend on the processing

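The edgeR test called 0 genes. It called 20 genes with TMM normalization and 5 of 27 tested genes with edgeR's default filter on low counts (among them Usp10, snRNA:LU, snRNA:U12 and FASN2), all higher with the NHL domain. Leaving out each library in turn gave 0 to 2 genes. The IP number as a replicate block gave 0 genes, as did DESeq2, no filter, a filter of 50 cDNAs, all 9 libraries in 1 fit, positions inside 1 gene, and leaving out small and mitochondrial RNAs. The deviations of same-numbered libraries correlated at -0.08, 0.08 and -0.22, so no pairing by number was seen. With few control cDNAs per gene a pairing could stay hidden, so these values cannot decide whether the numbers pair the samples. With the block the number of genes at equal depth differed by -30.4 as before (paired exact permutation test, p = 0.5, with 0.25 the smallest possible). Without 1 library that difference ranged from -50.5 to -14.1.

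The share of small nuclear and nucleolar RNAs was 5.73 percentage points higher with the NHL domain, 0.22 with each position counted once (a share that moves with depth), and 4.74 to 7.50 without 1 library. In alternatives chosen after seeing the data, leaving out 1 library gave 192 to 278 genes with every NHL domain library above the control. Leaving out 1 NHL domain library gave 366 to 1231 recurrent positions. Leaving out 1 control library left 57 to 75 of the 300 recurrent positions with a control cDNA. With fewer libraries, lying above the control and recurrence are easier to meet, while a control cDNA is harder to meet.

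Of 39 named genes, DESeq2 turned the sign for 4, with log2 fold changes of 0.092 for snRNA:7SKa, 0.042 for mt:srRNA, 0.067 for chic and 0.11 for LanA, and the replicate block for 1, with -0.039 for Col4a1. Without 1 library the log2 fold change ranged from -0.29 to 0.024 for snRNA:7SKa, -2.10 to 0.76 for RpL24, -1.22 to 0.034 for bic, -0.64 to 1.02 for Col4a1, -0.44 to 0.41 for chic, and -0.70 to 0.50 for LanA. It ranged from -0.28 to 5.29 for spz, -0.56 to 4.83 for Mlc-c, -0.78 to 0.067 for Hrb27C, -1.79 to 0.22 for Swip-1, and -0.75 to 5.42 for lost. Relative to its shift of the median, TMM turned no sign. Its test, which does not take off that shift, brought 13 of the named genes past the threshold. The alternatives planned for U content, motifs and 3′ UTRs were not run. At 849 to 1252 cDNAs per control library, most genes had too few control cDNAs to show a 2-fold difference.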
